A study of Mus musculus with 3 samples.

Results

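The genes described here are 10 genes of the brain endothelium and the blood-brain barrier, Cldn5, Pecam1, Flt1, Kdr, Cdh5, Tek, Slco1a4, Abcb1a, Slc2a1 and Mfsd2a, taken by gene name from the 54532 genes of a hippocampal RNA-seq table. All 10 were present and all 10 were expressed above the filter used below in each of the 3 libraries. The libraries come from the hippocampus of 10-month-old C57BL/6 mice, 1 each of wild type (WT), PS19 and PS19 Zbp1+/-. PS19 mice are a model of tau pathology: the Prnp promoter, active mainly in neurons, drives mutant human tau in them. PS19 Zbp1+/- mice carry the same transgene and are heterozygous for Zbp1, which encodes a receptor for Z-RNA and Z-DNA. The series concerns Z-RNA in tau-driven neurodegeneration, and its labels do not say how the Zbp1 allele was made or how many animals each library holds.

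Brain capillaries are lined by endothelial cells that are sealed to each other by tight junctions and carry few vesicles, so that most solutes cross the wall only through transporters. Claudin-5 (Cldn5) is the main tight junction claudin of these cells, VE-cadherin (Cdh5) holds their adherens junctions, and Pecam1 is an adhesion molecule of the cell border that platelets and leukocytes also carry. Kdr is the main signalling receptor for the growth factor VEGF-A, Flt1 binds VEGF-A tightly and acts largely as a trap for it, and Tek (Tie2) is the receptor for the angiopoietins. Slc2a1 is the barrier's glucose transporter, Abcb1a a P-glycoprotein drug efflux pump, Slco1a4 an organic anion transporter, and Mfsd2a a carrier of lysophosphatidylcholine lipids that also holds down caveolar transport. Slc2a1 is also made by other brain cells, among them astrocytes and the choroid plexus epithelium.

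Levels are in FPKM, a fragment count corrected for both library size and gene length. A difference between 2 libraries is that of log2(FPKM + 1), and a gene is called at a difference of 2-fold (1 log2 unit) or, by a second rule, of 1.5-fold (0.585 log2 units). Each genotype has 1 library, so no difference has a replicate check and no p-value is given. Read ratios per library size carry exact (Clopper-Pearson) 95% intervals that cover counting error only, and they compare libraries, not genotypes. In bulk tissue, fewer endothelial cells and less RNA per endothelial cell cannot be told apart.

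The libraries held 16400328 to 17109734 recovered reads. Read ratios are per library size implied by the FPKM values. That size was below the recovered reads in PS19 Zbp1+/- (15826984 against 17109734) and above them in WT (17253479 against 16746085) and PS19 (17287957 against 16400328). Scaling by total reads therefore lowers every PS19 Zbp1+/- value relative to the other libraries. Of Zbp1 itself, WT held 5 reads, PS19 91 and PS19 Zbp1+/- 0, where a count of 0 allows an FPKM of up to 0.0537. The reads do not settle whether an intact allele is present in the library labelled PS19 Zbp1+/-. That library had reads for 21408 genes, against 24741 (WT) and 25397 (PS19). It had 882 genes with 1 read, against 2467 and 2465. Its counts of 0 or near 0 are thus not directly comparable with those of the other libraries, and the cause was not tested. Xist had 11062, 13350 and 0 reads, and the Y-linked Ddx3y 0, 0 and 711, so sex and genotype cannot be told apart in the comparisons of PS19 Zbp1+/-. That library was also almost without choroid plexus RNA. The summed FPKM of 8 choroid plexus markers was 3411 (WT), 2169 (PS19) and 25.6 (PS19 Zbp1+/-), with none of the 8 at 0 reads.

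Cldn5 and Kdr were highest in PS19 Zbp1+/- and lowest in PS19. The other 8 genes were highest in PS19, and no gene was highest in WT. For Pecam1, Tek, Mfsd2a and Kdr the order of PS19 and WT lay within counting error, as with 397 against 395 reads for Mfsd2a. The share of all genes highest in PS19 was not counted, so these counts have no baseline. The bases upstream of Cldn5, Kdr and Flt1 are shown to set side by side the start regions of the pair highest in PS19 Zbp1+/- and of the other VEGF receptor. RefSeq start regions were found for 8 of the 10 genes (GRCm38.p6), and each stretch is the 250 bases before the RefSeq start, which for Abcb1a lies 92986 bases from the start of the gene in the table. For Abcb1a and Slco1a4 the bases after the RefSeq start were not found in a GENCODE M21 transcript. The sequences are given with every GGAA core of the ETS family (or TTCC, its complement) in capitals. The Cldn5 stretch is chr16:18776597-18776846 on the plus strand, the Kdr stretch chr5:75978456-75978705 and the Flt1 stretch chr5:147726012-147726261, both on the minus strand.
Cldn5: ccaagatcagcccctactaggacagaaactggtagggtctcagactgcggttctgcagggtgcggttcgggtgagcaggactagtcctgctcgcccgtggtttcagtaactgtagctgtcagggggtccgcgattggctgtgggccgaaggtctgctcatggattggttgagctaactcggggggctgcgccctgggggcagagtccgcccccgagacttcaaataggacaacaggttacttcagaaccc
Kdr: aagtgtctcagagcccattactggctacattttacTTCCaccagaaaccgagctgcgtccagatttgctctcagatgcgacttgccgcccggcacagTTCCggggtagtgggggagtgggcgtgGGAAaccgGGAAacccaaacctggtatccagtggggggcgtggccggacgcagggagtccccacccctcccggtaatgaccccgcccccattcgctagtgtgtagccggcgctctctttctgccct
Flt1: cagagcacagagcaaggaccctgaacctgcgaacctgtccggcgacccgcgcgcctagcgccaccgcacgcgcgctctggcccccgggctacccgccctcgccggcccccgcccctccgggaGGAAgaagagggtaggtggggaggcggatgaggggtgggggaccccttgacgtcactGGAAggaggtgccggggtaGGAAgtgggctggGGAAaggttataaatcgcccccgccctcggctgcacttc
The Cldn5 stretch held 0 GGAA cores, and the Kdr and Flt1 stretches held 4 each. Among the stretches not shown, that of Slc2a1 also held 0, those of Tek and Mfsd2a 2 each, that of Slco1a4 4 and that of Abcb1a 5. Of 32851 start regions of the same length, 93.4% held at least 1, with a median of 3. All motifs were searched on both strands. The TCF/LEF motif ATCAAAG had 0 matches in all 8 stretches, against 3.21% of start regions. The hypoxia response core ACGTG had 1 match before Slc2a1 and 2 before Mfsd2a and none before the other 6, against 16.6% of start regions. A match is a run of letters and not a known site.

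Levels per gene length spanned more than an order of magnitude. In WT, Slc2a1 was at an FPKM of 37.8 and Cldn5 at 22.4, followed by Mfsd2a at 10.2, Slco1a4 at 6.64, Abcb1a at 4.43, Flt1 at 3.38, Pecam1 at 2.90, Tek at 2.35, Cdh5 at 1.88 and Kdr at 1.51. The transporters and the claudin thus stood above the adhesion molecules and receptors. With 1 library per genotype there is no spread against which neighbours in this order could be compared. In PS19 Zbp1+/- the top of this order was inverted, with Cldn5 at 38.1 above Slc2a1 at 21.9.

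**Figure D1:**
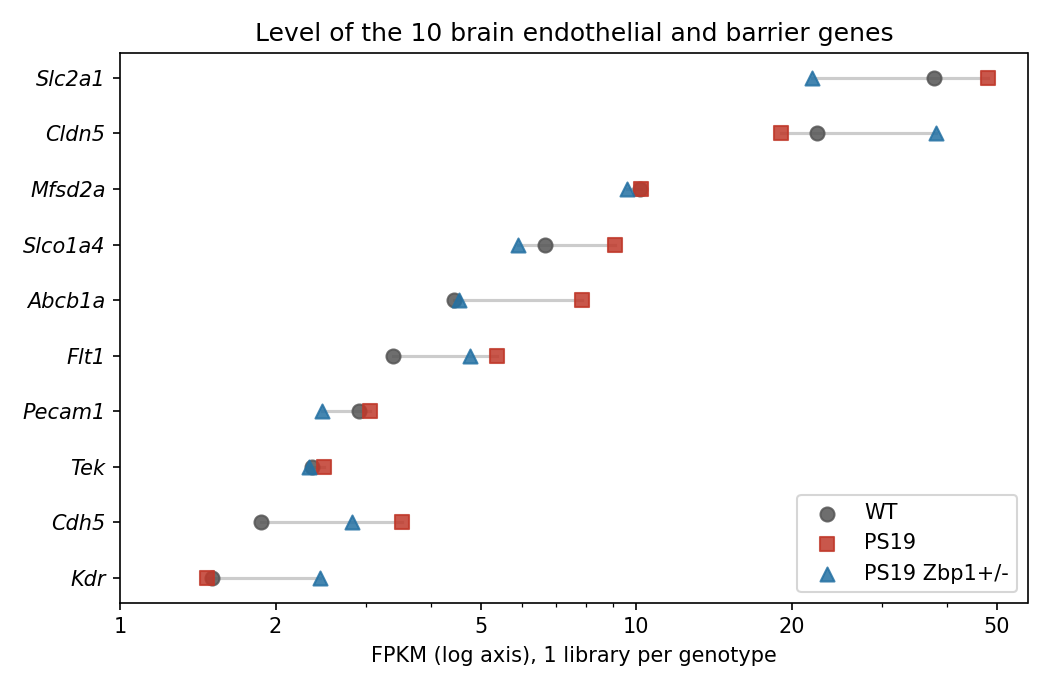
FPKM of each of the 10 genes (log axis) in the WT, PS19 and PS19 Zbp1+/- libraries, with a line from the lowest to the highest of the 3. Squares (PS19) lie furthest right for 8 genes and triangles (PS19 Zbp1+/-) for Cldn5 and Kdr. PS19 and WT differ within counting error for Pecam1, Tek, Mfsd2a and Kdr.

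Between PS19 and WT no gene of the 10 differed by 2-fold, and Abcb1a and Cdh5 were more than 1.5-fold higher in PS19. Of all 12703 protein-coding genes tested, 2.2% were called higher and 0.291% called lower at 2-fold. The shares past 1.5-fold were 6.34% higher and 2.71% lower. The read ratio interval lay above 1 for 5 of the 10 genes and below 1 for 1, against 28.3% and 32.7% of all genes. The median difference of the 10 was 0.20, and that of all genes tested was -0.03. Without Abcb1a, the gene with the largest difference, the median of the other 9 was 0.06.

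Of the junction and adhesion genes, Cdh5 (ENSMUSG00000031871, chromosome 8: 104101625 to 104144511, GRCm38) had FPKM values of 1.88 (WT), 3.51 (PS19) and 2.81 (PS19 Zbp1+/-), resting on 136, 255 and 187 reads. WT was the low library for this cadherin, and all 3 pairs of libraries differed beyond counting error. The ratio of PS19 to WT was 1.87 (95% interval 1.51 to 2.32), a log2 difference of 0.65 that exceeded those of 94.6% of the genes tested. After subtraction of the median of genes of like GC content and length, the difference was 0.579, just short of 1.5-fold.

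Cldn5 (ENSMUSG00000041378, chromosome 16: 18776847 to 18778262) was at an FPKM of 22.4 (WT), 19.1 (PS19) and 38.1 (PS19 Zbp1+/-), from 548, 467 and 853 reads. PS19 and WT lay close together and PS19 Zbp1+/- far above both. The ratio of PS19 to WT was 0.850 (0.750 to 0.964), and the log2 difference of -0.22 turned to 0.04 when genes of like GC content and length were the reference. The longest Cldn5 transcript is 60.5% G and C, the highest of the 10 genes.

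Pecam1 (ENSMUSG00000020717, chromosome 11: 106654217 to 106750628) was near level between WT and PS19, at FPKM values of 2.90 and 3.05, and lower in PS19 Zbp1+/- at 2.47. The ratio of PS19 to WT was 1.05, with an interval of 0.896 to 1.23 that holds 1. Cdh5 and Pecam1, 2 adhesion molecules of the same cell border, had read ratio intervals that do not overlap in this pair of libraries.

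Among the receptors, Flt1 (ENSMUSG00000029648, chromosome 5: 147561604 to 147726011) was at an FPKM of 3.38 (WT), 5.36 (PS19) and 4.76 (PS19 Zbp1+/-), from 787, 1252 and 1018 reads. As for Cdh5, WT was the low library and all pairs differed beyond counting error. The ratio of PS19 to WT was 1.59 (1.45 to 1.74) and the log2 difference 0.54, short of 1.5-fold on that scale. With genes of like GC content and length as the reference it was 0.36.

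Kdr (ENSMUSG00000062960, chromosome 5: 75932827 to 75978458) was at 1.51, 1.47 and 2.43 in the same order, from 235, 230 and 348 reads. WT and PS19 could not be told apart at this depth (ratio 0.977, interval 0.811 to 1.18), and PS19 Zbp1+/- stood above both. Tek (ENSMUSG00000006386, chromosome 4: 94739289 to 94874976) was at 2.35, 2.48 and 2.32, from 191, 202 and 173 reads. All 3 Tek ratios held 1 within their intervals, which for PS19 over WT ran from 0.862 to 1.29.

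Of the transporters, Abcb1a (ENSMUSG00000040584, chromosome 5: 8660077 to 8748575) was at an FPKM of 4.43 (WT), 7.85 (PS19) and 4.53 (PS19 Zbp1+/-), from 419, 744 and 393 reads. WT and PS19 Zbp1+/- lay together and PS19 above them. The ratio of PS19 to WT was 1.77 (1.57 to 2.002), and the log2 difference of 0.70, the largest of the 10 genes on this scale, exceeded those of 95.5% of all genes tested. Abcb1b, the neighbouring P-glycoprotein gene with 87.2% identity over 4032 bases, had 83, 105 and 37 reads in the same order.

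Slco1a4 (ENSMUSG00000030237, chromosome 6: 141805440 to 141856199) was at 6.64 (WT), 9.11 (PS19) and 5.91 (PS19 Zbp1+/-), from 735, 1010 and 600 reads. PS19 was again the high library, at a ratio to WT of 1.37 (1.25 to 1.51). Its closest relative Slco1a5, 88.9% identical over 2153 bases, had 15, 35 and 0 reads.

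Slc2a1 (ENSMUSG00000028645, chromosome 4: 119108711 to 119137983) was at 37.8 (WT), 48.1 (PS19) and 21.9 (PS19 Zbp1+/-), from 2287, 2917 and 1215 reads, the deepest counts of the 10 genes. All 3 libraries differed beyond counting error. The ratio of PS19 to WT was 1.27 (1.20 to 1.35). Mfsd2a (ENSMUSG00000028655, chromosome 4: 122946850 to 122961188) varied least among the transporters, at 10.2, 10.2 and 9.60 from 395, 397 and 342 reads, and all 3 of its ratios held 1 within their intervals. In PS19 over WT that interval was 0.870 to 1.16. For PS19 Zbp1+/- this depends on the scaling, since the log2 difference of Mfsd2a from PS19 was -0.08 as deposited, -0.25 by total reads and -0.34 under TPM.

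**Figure D2:**
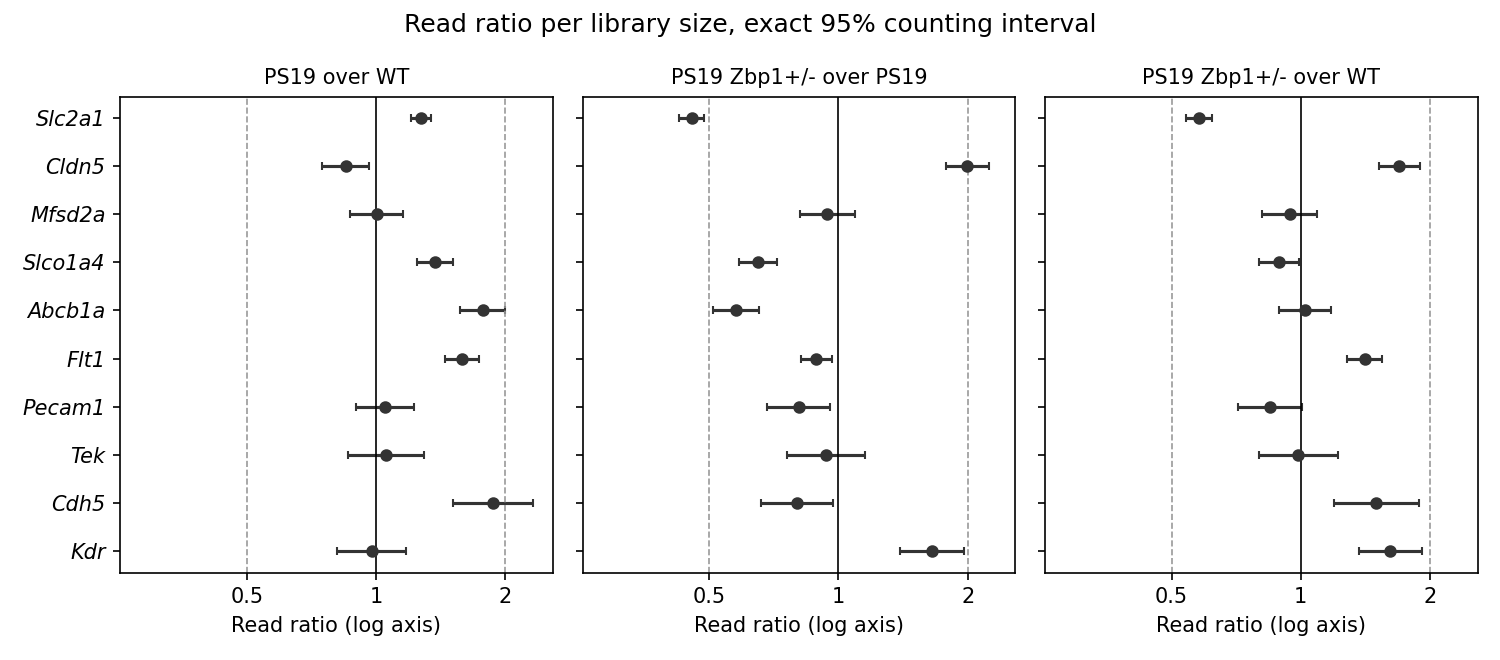
Read ratio per library size (log axis) of the 10 genes in the 3 comparisons, with exact 95% counting intervals. Dashed lines mark 2-fold. In PS19 over WT the ratios run from 0.850 for Cldn5 to 1.87 for Cdh5, and Slc2a1 and Cldn5 lie at the 2 ends of both comparisons of PS19 Zbp1+/-.

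Between PS19 Zbp1+/- and PS19 the 10 genes went both ways. Slc2a1, Abcb1a and Slco1a4 were lower, Cldn5 and Kdr were higher, and, as deposited, Tek and Mfsd2a did not differ beyond counting error. At 2-fold, 1 gene was called lower (Slc2a1) and 0 higher, against 5.16% and 2% of the 12772 genes tested. At 1.5-fold, 2 were lower (Slc2a1 and Abcb1a) and 1 higher (Cldn5), against 12.1% and 9.37%. Intervals lay below 1 for 6 genes and above 1 for 2, against 32.6% and 39% of all genes. The median difference of the 10 was -0.18 and that of all genes 0.04. This comparison shares the PS19 library with the one before it, so a value that is high in PS19 enters both.

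Slc2a1 had a ratio of PS19 Zbp1+/- to PS19 of 0.455 (0.425 to 0.487), or 2.20-fold lower. Its log2 difference of -1.10 was below those of 95.8% of all genes tested. Relative to the median of the endothelial identity list it was -0.92, short of 2-fold. Choroid plexus markers moved with it, since all 8 of 8 were more than 2-fold lower in PS19 Zbp1+/-, with a median of -3.44. Astrocyte markers did too, with 7 of 7 lower, a median of -0.79, and a summed FPKM of 375 (WT), 1197 (PS19) and 401 (PS19 Zbp1+/-). Neither list had a gene at 0 reads. The part of either cell type in the Slc2a1 difference was not tested. Gm12868, an antisense gene over Slc2a1, had 28 reads in PS19 Zbp1+/-, against 1215 for Slc2a1.

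Cldn5 had a ratio of PS19 Zbp1+/- to PS19 of 1.995 (1.78 to 2.24), a log2 difference of 0.96 above those of 97.6% of all genes tested. The Cldn5 difference was 0.69 after rescaling each library to the same FPKM sum (TPM) and 1.15, past 2-fold, relative to the endothelial identity list. Kdr had a ratio of 1.65 (1.40 to 1.96), with a log2 difference of 0.47 that the added 1 in log2(FPKM + 1) holds down at this low level. With no added constant it was 0.72.

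Abcb1a had a ratio of 0.577 (0.509 to 0.653) and a log2 difference of -0.68, which was -0.49, short of 1.5-fold, relative to the endothelial identity list. Slco1a4 had a ratio of 0.649 (0.586 to 0.719). Cdh5, Pecam1 and Flt1 had smaller deficits in PS19 Zbp1+/-, at ratios of 0.801 (0.660 to 0.971), 0.809 (0.683 to 0.958) and 0.888 (0.817 to 0.966). The Flt1 difference of -0.14 turned to 0.04 relative to the endothelial identity list. Tek and Mfsd2a were at 0.935 and 0.941, with intervals that hold 1.

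Between PS19 Zbp1+/- and WT the 10 genes again went both ways, 5 higher and 5 lower, with a median of 0.01 equal to that of all 12436 genes tested. No gene was called at 2-fold in either direction, against 1.07% of all genes higher and 2.28% lower. At 1.5-fold Cldn5 was higher and Slc2a1 lower, against 6.71% and 7.12%. Intervals lay above 1 for 4 genes and below 1 for 2, against 35.3% and 31.3%.

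Cldn5 had a ratio of PS19 Zbp1+/- to WT of 1.70 (1.52 to 1.89) and a log2 difference of 0.74, which was 0.584, just short of 1.5-fold, after rescaling to TPM. Slc2a1 was 1.73-fold lower (1.61 to 1.85), with a log2 difference of -0.76. Kdr was at a ratio of 1.61 (1.36 to 1.91), Cdh5 at 1.499 (1.20 to 1.88) and Flt1 at 1.41 (1.28 to 1.55). These 5 genes kept the sign of their difference in all alternatives run, though Flt1 and Cdh5 were at 0.11 and 0.14 with genes of like GC content and length as the reference.

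Slco1a4 was at 0.890 (0.798 to 0.993), and its log2 difference of -0.15 turned to 0.07 with the GC and length reference. Abcb1a, at 1.02 (0.889 to 1.18), Pecam1, Tek and Mfsd2a had intervals that hold 1 with the library sizes as deposited. This depends on the scaling. As deposited, the log2 differences of Abcb1a, Pecam1, Tek and Mfsd2a from WT were 0.03, -0.17, -0.01 and -0.08. By total reads they were -0.10, -0.28, -0.12 and -0.22.

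**Figure D3:**
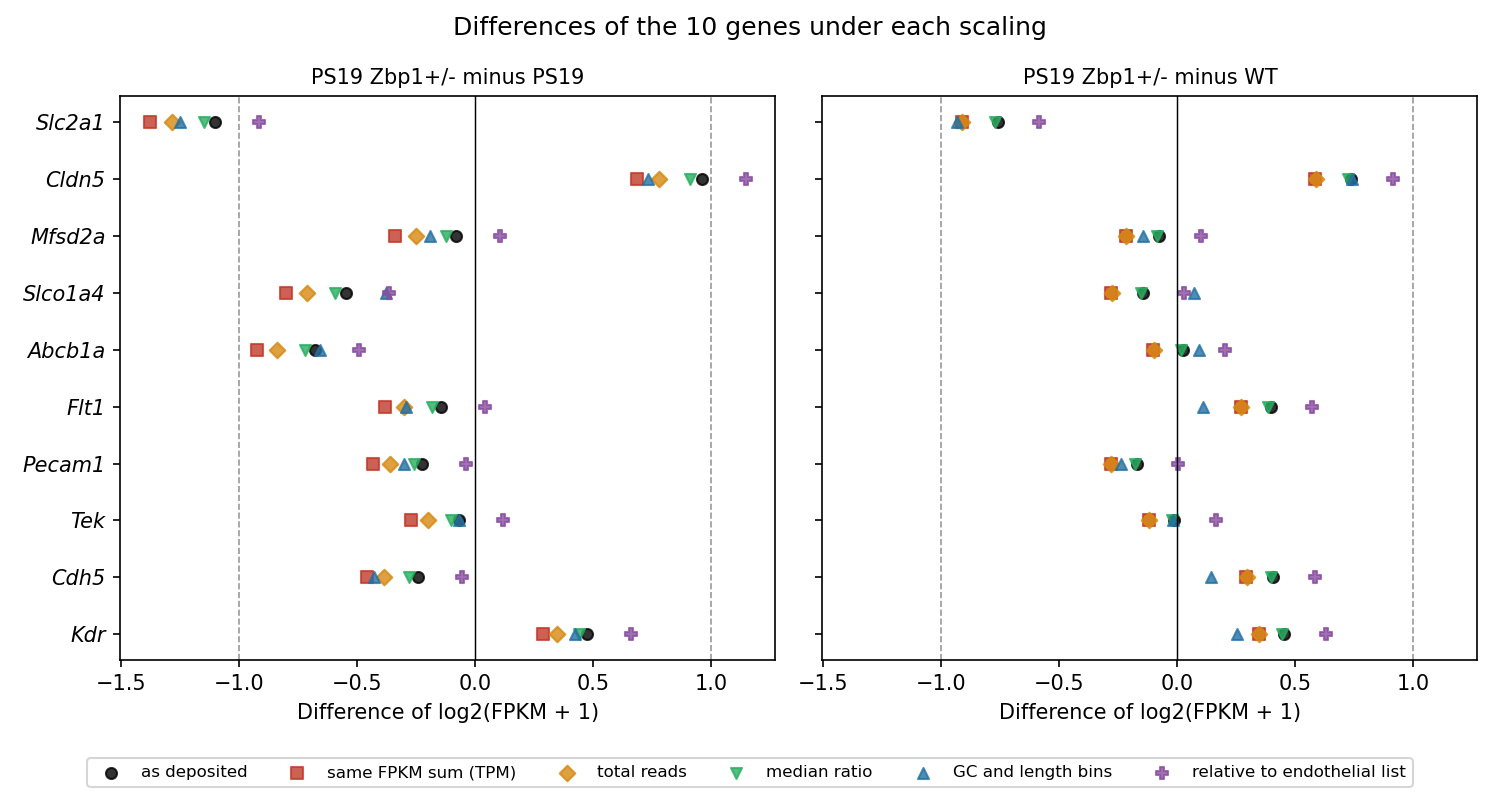
Difference of log2(FPKM + 1) of the 10 genes under 6 scalings, in the 2 comparisons of PS19 Zbp1+/-. Slc2a1 stays left of 0 and Cldn5 and Kdr right of 0 under every scaling drawn, while Flt1, Tek and Mfsd2a cross 0 in the comparison with PS19.

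Ratios between 2 genes within a library do not depend on library scaling. The pairs given here were chosen after their values were seen. Kdr stood at 0.447 of the Flt1 level (WT), 0.275 (PS19) and 0.511 (PS19 Zbp1+/-). The PS19 value was 1.63-fold below WT (exact conditional 95% interval 1.32 to 2.001), and the PS19 Zbp1+/- value could not be told from WT (ratio 1.14, interval 0.943 to 1.39).

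Cldn5 stood at 7.73 times the Pecam1 level (WT), 6.26 times (PS19) and 15.4 times (PS19 Zbp1+/-). The PS19 Zbp1+/- value was 1.998-fold above WT (1.63 to 2.45) and 2.46-fold above PS19 (2.01 to 3.03). Against Cdh5 the picture differed, with Cldn5 at 12.0 times (WT), 5.44 times (PS19) and 13.5 times (PS19 Zbp1+/-). That PS19 Zbp1+/- value could not be told from WT (ratio 1.13, interval 0.878 to 1.46), and the PS19 value was 2.20-fold below WT (1.72 to 2.83). Against Ocln, the tight junction protein occludin, Cldn5 stood at 4.71, 5.18 and 22.3. The longest transcripts of Cldn5 and Ocln are 60.5% and 42.0% G and C. The parts of GC content and of the low choroid plexus RNA in this ratio were not tested. Slc2a1 stood at 3.72 times the Mfsd2a level (WT), 4.72 times (PS19) and 2.28 times (PS19 Zbp1+/-), the last being 2.07-fold below PS19 (1.76 to 2.43). The changes of Cldn5 over Pecam1 against both libraries and of Slc2a1 over Mfsd2a against PS19 were larger than counting error.

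The centred log2(FPKM + 1) profiles of the 10 genes over the 3 libraries were compared by Euclidean distance. Tek and Mfsd2a lay closest, 0.05 apart, followed by Flt1 and Cdh5 at 0.09, Pecam1 and Mfsd2a at 0.10, Pecam1 and Tek at 0.13 and Slco1a4 and Abcb1a at 0.21. Cldn5 and Slc2a1 lay farthest apart, at 1.51. Of 7708 other protein-coding genes with a mean FPKM of at least 5, the 5 closest to the mean profile of the 10 were Itch, Dnajc13, Nras, Unc80 and Arhgef10l, at distances of 0.002 to 0.011. Over only 3 libraries this measure separates few genes.

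The rest of the vascular programme was read from 9 lists. Of the tight junction genes, 11 of 12 were tested. In PS19 against WT, 3 were at least 1.5-fold higher and 1 lower, beside 6.34% and 2.71% of all genes. Jam2 was at 0.66 and the scaffold gene Tjp1 at 0.59, and Cldn3 was at -0.82 from only 50 and 19 reads. Against PS19, the PS19 Zbp1+/- library had 3 at least 1.5-fold lower and 0 higher, against 12.1% and 9.37% of all genes. These were F11r at -1.42, Cldn1 at -1.17 and Ocln at -0.79. The choroid plexus markers were lower in the same comparison (8 of 8, median -3.44), and their part in these differences was not tested. Ocln had FPKM values of 4.76 (WT), 3.69 (PS19) and 1.71 (PS19 Zbp1+/-), lowest in the library where Cldn5 was highest. The list's medians were 0.03 in PS19 against WT and -0.41 in PS19 Zbp1+/- against PS19, beside -0.03 and 0.04 for all genes.

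Of the VEGF pathway genes, 9 of 10 were tested and 0 were called at 1.5-fold in any of the 3 comparisons. Of all genes, 6.34% were called higher and 2.71% lower in PS19 against WT. The shares were 9.37% and 12.1% in PS19 Zbp1+/- against PS19, and 6.71% and 7.12% in PS19 Zbp1+/- against WT. Vegfa, the ligand of Kdr and Flt1, was at an FPKM of 20.2 (WT), 13.5 (PS19) and 17.6 (PS19 Zbp1+/-). Its PS19 level was 0.669 of that in WT (0.617 to 0.725). Vegfa was thus lowest in the library where its trap receptor Flt1 was highest. The list's median of -0.02 in PS19 against WT turned to 0.09 under TPM, and its median of 0.17 in PS19 Zbp1+/- against PS19 turned to -0.08 under TPM.

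Of the genes listed for the angiopoietin and Tie pathway, 4 of 6 were tested. All 4 were positive in PS19 against WT, with a median of 0.38. Of all genes, 5887 of 12703 were positive there, with a median of -0.03. At 1.5-fold, 1 of the 4 was higher and 0 lower, beside 6.34% and 2.71% of all genes. In PS19 Zbp1+/- against PS19 the median was -0.63, beside 0.04 for all genes. There 2 of the 4 were at least 1.5-fold lower and 0 higher, beside 12.1% and 9.37% of all genes. Ptprb, the endothelial phosphatase that opposes Tek, was at FPKM values of 1.92, 3.64 and 2.12 in WT, PS19 and PS19 Zbp1+/-, and Angpt1, a Tek agonist, at 1.05, 1.90 and 0.80. Both were above WT in PS19, at ratios of 1.89 (1.68 to 2.13) and 1.82 (1.40 to 2.36), while the Tek ratio was 1.06 (0.862 to 1.29). Angptl2, an angiopoietin-like gene that is 1 of the 4 behind these medians, was 0.0868 of PS19 in PS19 Zbp1+/-, from 239 and 19 reads. Choroid plexus markers were lower in the same comparison (8 of 8, median -3.44), and their part in the Angptl2 difference was not tested.

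Of the 16 Wnt genes that build and keep the barrier, 0 were called at 1.5-fold in PS19 against WT. Of all genes, 6.34% were called higher and 2.71% lower. Against PS19, the PS19 Zbp1+/- library had 2 called higher at 2-fold, the ligands Wnt7b at 1.37 and Wnt7a at 1.12. Among all genes, 2% were called higher at 2-fold. Neuron markers were also higher in this comparison (5 of 6, median 0.43), and their part in the Wnt7a and Wnt7b differences was not tested. Wnt7b was at FPKM values of 10.0, 9.52 and 26.1 in WT, PS19 and PS19 Zbp1+/-. Fzd4, a Wnt receptor of brain endothelium, was at -0.89. In all, 4 genes of the list were at least 1.5-fold lower, beside 12.1% of all genes. The medians were 0.19 in PS19 against WT and -0.18 in PS19 Zbp1+/- against PS19.

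All 7 caveolar and transcytosis genes were positive in PS19 against WT and all 7 negative in PS19 Zbp1+/- against PS19, under each of the 4 scalings run on the lists. Their medians were 0.28 and -0.50, beside -0.03 and 0.04 for all genes. Cav1, the main caveolar coat protein, was at FPKM values of 3.60, 6.65 and 3.19, and Cavin2 at 4.15, 5.26 and 1.63. Astrocyte markers had the same signs, 7 of 7 positive and then 7 of 7 negative, with medians of 0.54 and -0.79. Of 6 microglia markers, 5 were positive and then all 6 negative. Of all genes tested, 5887 of 12703 were positive in the first comparison and 5909 of 12772 negative in the second. The part of these cells in the caveolar differences was not tested.

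Of the activation and venous genes, 8 of 12 were tested in PS19 against WT, with a median of 0.03. At 2-fold, 2 were called higher and 0 lower, beside 2.2% and 0.291% of all genes. In PS19 Zbp1+/- against PS19 the list median was -0.57. There 3 were called lower at 2-fold and 0 higher, beside 5.16% and 2% of all genes. Icam1, a leukocyte adhesion molecule, held 38 (WT), 160 (PS19) and 33 (PS19 Zbp1+/-) reads, 4.20-fold above WT in PS19 (2.93 to 6.15). Vwf, the von Willebrand factor, had 388, 841 and 322 reads, at a ratio of 2.16 (1.92 to 2.45), and Lcn2 had 11, 68 and 6. Vcam1 had 696, 852 and 215 reads and was lowest in PS19 Zbp1+/-. Ackr1 and Nr2f2, listed here as venous genes, went the other way. Ackr1 was at an FPKM of 26.6, 17.8 and 28.5 and Nr2f2 at 5.63, 3.70 and 7.37, both lowest in PS19. Their differences of 0.65 and 0.83 in PS19 Zbp1+/- against PS19 made them the 2 genes of the list at least 1.5-fold higher there. Of all genes, 9.37% were. The summed FPKM of neuron markers was likewise lowest in PS19 (794, 676 and 1034), and the part of neurons was not tested. Sele had 0 reads in every library and Selp at most 1. Microglia markers moved with Icam1, Vwf and Lcn2, with 4 of 6 at least 2-fold higher in PS19 than in WT, a summed FPKM of 76.5, 192 and 90.3 in WT, PS19 and PS19 Zbp1+/-, and none at 0. Their part was not tested.

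Of the other barrier transporters, 17 of 18 were tested in PS19 against WT, and 2 were at least 1.5-fold higher and 0 lower, beside 6.34% and 2.71% of all genes. These were Slco2b1 at 0.86 and Slc19a3 at 0.78. Against PS19, 2 were 1.5-fold higher in PS19 Zbp1+/-, Slc7a3 at 0.79 and Slc39a10 at 0.71. There 3 were lower, with Slco2b1 at -1.20 the lowest. Of all genes, 9.37% were higher and 12.1% lower. The transporter medians were 0.13 and -0.11, and they were 0.23 and -0.38 under TPM and 0.07 and -0.30 with the GC and length reference. Slco1c1, the thyroxine carrier, was at 16.9, 15.1 and 8.88 in WT, PS19 and PS19 Zbp1+/-, and like Slc2a1 it was lowest in PS19 Zbp1+/-. Of the arterial genes, 7 of 10 were tested. In PS19 against WT 0 were called at 1.5-fold, beside 6.34% of all genes higher and 2.71% lower. Against PS19, PS19 Zbp1+/- had Mgp at -1.24, Gkn3 at -1.03 and Efnb2 at 1.10. The arterial medians were -0.31 in both comparisons, but -0.13 against WT and -0.53 against PS19 with the GC and length reference.

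A list of 29 further endothelial genes was read beside the 10, and all 29 had reads in each library. This does not test the endothelial label, since bulk tissue does not show which cells made the reads. Of the 24 tested in PS19 against WT, 2 were at least 1.5-fold higher (Tal1 at 0.66 and Fli1 at 0.65) and 0 lower, beside 6.34% and 2.71% of all genes. The median was 0.05, and it was 0.17 under TPM and 0.19 with the GC and length reference. Microglia markers were higher in the same comparison, 4 of 6 by at least 2-fold, and their part was not tested. Of the 24 tested in PS19 Zbp1+/- against PS19, 0 were higher and 8 lower at 1.5-fold, beside 9.37% and 12.1% of all genes. The median was -0.19, beside -0.18 for the 10 genes, and under TPM the medians were -0.39 and -0.41. Choroid plexus (8 of 8, median -3.44), microglia (6 of 6, -1.01) and astrocyte markers (7 of 7, -0.79) were also lower in this comparison. Of the pericyte and smooth muscle markers 5 were positive and 5 negative, and 5 of 6 neuron markers were positive. The part of these cells was not tested. The flow-responsive factor Klf4 had 174, 162 and 18 reads and Klf2 442, 379 and 169. Neither Klf2 nor Klf4 is specific to endothelium. Bsg alone was at an FPKM of 331 in WT, where the whole list summed to 495.

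Pericyte and smooth muscle markers, the neighbours of the endothelium in the vessel wall, had a summed FPKM of 77.9 (WT), 89.6 (PS19) and 91.6 (PS19 Zbp1+/-), with none of the 12 at 0 reads. Of the 10 tested in PS19 against WT, 2 were at least 1.5-fold higher and 0 lower, beside 6.34% and 2.71% of all genes. The marker median was 0.28. Of the 10 tested in PS19 Zbp1+/- against PS19, 0 were called at 1.5-fold, with a median of 0.05. There 9.37% of all genes were higher and 12.1% lower. Against WT, PS19 Zbp1+/- had 2 of 9 at least 1.5-fold higher, beside 6.71% of all genes, and a marker median of 0.32. Blood markers were lower in PS19 Zbp1+/-, with a summed FPKM of 19.8, 16.3 and 3.44 in WT, PS19 and PS19 Zbp1+/- and the platelet gene Pf4 at 9, 5 and 0 reads. Ppbp, another platelet gene, had 0, 1 and 0 reads. Perivascular fibroblast markers summed to 23.9, 16.5 and 27.8, with Dcn carrying most of the sum in PS19 Zbp1+/-. Of the 5 tested in PS19 Zbp1+/- against PS19, 1 was positive and 4 negative, with a median of -0.35. Of all genes, 5909 of 12772 were negative there, with a median of 0.04. Against WT the fibroblast median was -0.56. Neuron markers summed to 794, 676 and 1034. None of the fibroblast or neuron markers was at 0, and the part of these cells in the results above was not tested.

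**Figure D4:**
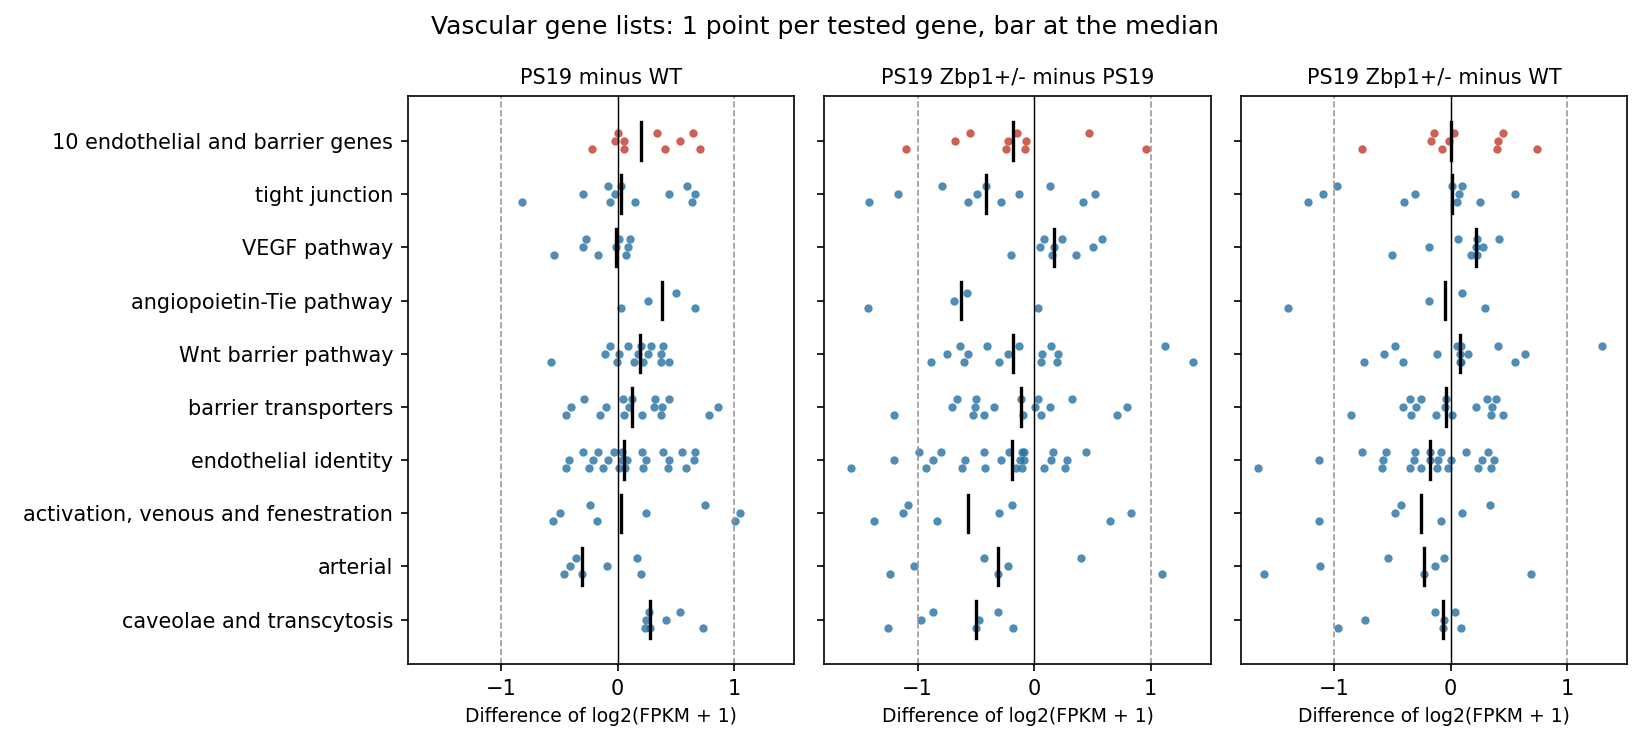
Difference of log2(FPKM + 1) of each tested gene (points) and the median (bar) of the 10 genes and of the 9 vascular lists in the 3 comparisons, with dashed lines at 2-fold. The caveolar genes lie right of 0 in PS19 minus WT and left of 0 in PS19 Zbp1+/- minus PS19, where the 10 genes spread from -1.10 to 0.96.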

How the data were processed

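The authors deposited 1 table of FPKM values with 1 column per library. Its name and its values give the unit. Per the submitters' processing notes, Trim Galore 0.6.5, STAR 2.5.3a and featureCounts 2.0.4 were used. These notes name the mm39 build, but the table's positions equal those of GENCODE M21 (GRCm38) for 98.3% of the 54409 gene IDs found there, so positions are given as GRCm38. Annotation release, strand setting and pooling are not given in the sources used here. Each FPKM times gene length was a whole multiple of 1 step (within 0.01 reads) in 100% of values, which gave whole reads and the implied library sizes (15826984 to 17287957).

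Differences of log2(FPKM + 1) cover protein-coding genes that reached an FPKM of 1 in at least 1 of the libraries compared. Read ratios carry exact 95% intervals. Without molecular identifiers, reads are not independent molecules, so intervals and floors cover counting error only. The 10 genes and the 16 other lists (9 vascular, 7 of cell type markers) were chosen with earlier results of these data known. Named genes were the 10 genes, up to 3 genes with the largest absolute difference in each vascular list and comparison, Abcb1b, and the 5 genes closest in profile. Marker lists are given by their summed level and up to 3 genes by level (Dcn). Some genes the rule names are not reported here. Slco1a5 and Gm12868 are named as a near copy and an overlapping gene. Tjp1, Sele, Selp, Ackr1, Nr2f2, Ppbp and Pf4, and all ratios within a library, were picked with their values in view.

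The alternatives were pseudocounts of 0.1 and 0.5, no filter, a mean FPKM of at least 5, TPM, total reads, the median ratio, every biotype, a 4-fold threshold, the mean, and leaving out the most changed gene. Added after seeing the data were bins of GC content (10) and length (5) from the longest M21 transcript, differences relative to the endothelial identity list, and read ratios with no pseudocount. Near copies were sought with BLAST 2.17.0 (85% identity, 300 bases). Genes that overlap the 10 held at most 28 reads. The procedure was tested on simulated data. Computation used scipy 1.17.1, pandas 2.3.3 and numpy 2.4.6 under Python 3.11.15, and plots matplotlib 3.10.9.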

Additional observations from a re-analysis of the deposited data

How the results depend on the processing

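No paired analysis was possible because each genotype has 1 library. The median of all genes tested moved from 0.04 to -0.20 under TPM and to -0.12 under total reads in PS19 Zbp1+/- against PS19, from 0.01 to -0.12 under both in PS19 Zbp1+/- against WT, and from -0.03 to 0.08 under TPM in PS19 against WT. Without the most changed gene the median was 0.0551 in PS19 against WT, -0.14 in PS19 Zbp1+/- against PS19 and 0.03 in PS19 Zbp1+/- against WT. The median of the 10 genes in PS19 Zbp1+/- against PS19 was -0.41 under TPM and turned to 0.0027 relative to the endothelial identity list. Their median in PS19 Zbp1+/- against WT, 0.01, turned to -0.11 under TPM, total reads and the filter at a mean FPKM of 5, and to -0.0027 under the median ratio. In PS19 against WT, 1 gene was at least 1.5-fold higher under the filter at a mean of 5, which leaves fewer genes, and under the GC and length bins, and 3 were under pseudocounts of 0.1 and 0.5, TPM and read ratios. In PS19 Zbp1+/- against PS19, 0 genes were past 4-fold, 2 were at least 1.5-fold higher with a pseudocount of 0.1, with plain read ratios and relative to the endothelial list, and under the last setting 2-fold calls were 1 higher and 0 lower and 1.5-fold calls 1 lower. In that comparison 3 were at least 1.5-fold lower under a pseudocount of 0.1, TPM, total reads, the median ratio and read ratios. In PS19 Zbp1+/- against WT, 2 were at least 1.5-fold higher with a pseudocount of 0.1, with read ratios and relative to the endothelial list. Under TPM 0 were. Of 315 values for single genes, 283 moved by less than their counting interval, 28 moved further and 4 differences that lay beyond counting error changed sign. These were Cldn5 in PS19 against WT (0.0418) and Slco1a4 in PS19 Zbp1+/- against WT (0.0723) under the GC and length bins, and, relative to the endothelial list, Flt1 in PS19 Zbp1+/- against PS19 (0.0432) and Slco1a4 in PS19 Zbp1+/- against WT (0.0304). Other changes of sign were of differences within counting error. The cause was not tested. Counts of 136 to 2917 reads limit each ratio. Of the 6113 genes that both WT and PS19 gave between 150 and 1000 reads, PS19 Zbp1+/- gave none to 2.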
